A study of Mus musculus with 16 samples.

Results

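Protocadherins are cell-surface proteins of the cadherin family, most of which bind the same protein on a neighbouring cell. They were taken here as all autosomal protein-coding genes of GENCODE M21 whose symbol begins with Pcdh, and 67 of 20807 genes met that rule. Of these, 57 lie in 3 tandem clusters on chromosome 18 (14 in the alpha cluster, 22 in the beta cluster and 21 in the gamma cluster), and 10 are non-clustered genes. Peaks of RNA polymerase II (Pol II) and of histone H2B carrying a single ubiquitin (H2Bub1) were compared between wild-type (WT) cells and cells without Atxn7l3 (KO), both in embryonic stem cells (mESCs) and in embryonic fibroblasts (MEFs) of the mouse. ATXN7L3 is an adaptor that a group of ubiquitin proteases needs to take ubiquitin off H2B.

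In the alpha and gamma clusters each gene has its own large first exon, which encodes the extracellular part, the membrane segment and a piece of the cytoplasmic tail. That exon is spliced to a small set of exons that all genes of the cluster share. Each first exon has its own promoter, and neurons use different combinations of them, which gives neighbouring cells different surface identities. The beta genes have no shared exons. CTCF and cohesin loop chosen promoters to distant enhancers, and promoters that are not used carry DNA methylation. Non-clustered protocadherins are ordinary single genes, several of which are active in mesenchyme and brain. H2Bub1 is normally laid down behind elongating Pol II, so it marks the bodies of transcribed genes.

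All cells came from mice of DBA/2 x C57BL/6 background, and the KO cells were Atxn7l3-/-, a deletion carried by every cell. The 4 groups of cells were Atxn7l3+/+ mESCs, Atxn7l3-/- mESCs, Atxn7l3+/+ MEFs and Atxn7l3-/- MEFs. The mESCs grew with leukaemia inhibitory factor and kinase inhibitors after feeder cells had been removed. MEFs were made from E10.5 embryos after removal of the head and the gut, and the study calls the KO cells MEF-like and describes their shape as unusual. Each of the 4 groups gave 1 library with an antibody against H2Bub1 and 1 with an antibody that binds RPB1, the subunit of Pol II that holds its repeat tail. The study describes the RPB1 antibody as recognizing the tail in its unmodified form. With 1 library per group no difference below has a replicate check and no test was made. The other 8 of the 16 samples were not analysed here.

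From WT mESCs to KO mESCs, WT MEFs and KO MEFs, the Pol II lists held 17074, 11963, 45870 and 32232 peaks, and the H2Bub1 lists 40979, 48952, 19725 and 28856. The read depth behind the lists is unknown. Of the 6 pluripotency markers, 5 had a Pol II promoter peak in each mESC list, and Esrrb had none. All 7 fibroblast markers had one in both MEF lists and none had one in mESCs, but the sum of their folds was 159 in WT and 81.2 in KO MEFs. Of the pluripotency markers, 0 in WT MEFs and 1 in KO MEFs (Tfcp2l1) had a promoter peak. In KO mESCs, 0.457% of the stretch from exon 3 to exon 11 of Atxn7l3 lay in H2Bub1 peaks, against 100% in WT mESCs. Pol II peaks covered 27.2% of it in WT and still 15.7% (377 bp, at its downstream edge) in KO mESCs, so the Pol II list of KO mESCs gives no clear check of its label. In MEFs the stretch held no peak of either mark in WT, and 0% for Pol II and 3.86% (93 bp) for H2Bub1 in KO, so the MEF lists give no check either.

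Pol II was found at few protocadherin promoters in mESCs and at more in MEFs. A promoter reaches 1000 bp up- and downstream of the transcription start site (TSS), and 1 bp of a peak in it was enough for a call. In WT mESCs, 1 of 67 promoters held a peak, against 35.3% of all autosomal protein-coding genes. That promoter was Pcdhgc3. In KO mESCs 0 of 67 did, against 32.1% of all genes. In WT MEFs 18 of 67 promoters (26.9%, exact 95% interval 16.8 to 39.1%) held a peak, against 55.3% of all genes. In KO MEFs 7 of 67 did (10.4%, 4.30 to 20.3%), against 52.3%. These intervals treat genes as independent draws, which neighbouring genes of a cluster are not. The 67 genes are all that met the rule, so the intervals measure no spread between libraries and do not compare WT with KO.

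The peaks of clustered genes were weaker than those of non-clustered genes in WT MEFs, and the ranges overlapped in both genotypes. In WT MEFs 13 of 57 clustered promoters held a peak, with a median fold over local background of 3.74 (lowest 2.41, highest 10.2), and 5 of 10 non-clustered promoters did, with a median fold of 10.7 (lowest 8.43, highest 18.4). The median over all genes with a promoter peak in that list was 13.3. In KO MEFs 3 of 57 clustered promoters held one, with a median fold of 4.72 (3.13 to 9.85), and 4 of 10 non-clustered promoters did, with a median of 5.72 (3.31 to 12.9).

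Of the 18 promoters occupied in WT MEFs, 11 had no peak in KO MEFs, against 8.01% of all genes with a WT peak. They were 10 of the 13 clustered genes and 1 of the 5 non-clustered genes. With both MEF lists cut to the same number of peaks, the counts became 6 of 9 clustered genes and 1 of 5 non-clustered genes, against 6.93% of all genes with a WT peak in the shortened list. The 10 clustered promoters that lost the call all had weak peaks in WT, and weak peaks were lost more often everywhere. Among genes with a WT fold under 5, 51.3% lost the call, and among the 12 clustered genes of that range 10 did. In the lists of equal length the share was 46.8%, and 6 of 8 clustered genes of that range lost the call. The difference was not tested, since neighbouring promoters of a cluster are not independent and each condition has 1 library. A promoter peak in KO MEFs only was found at 0 of 67 protocadherin genes, against 1.51% of all genes.

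**Figure D1:**
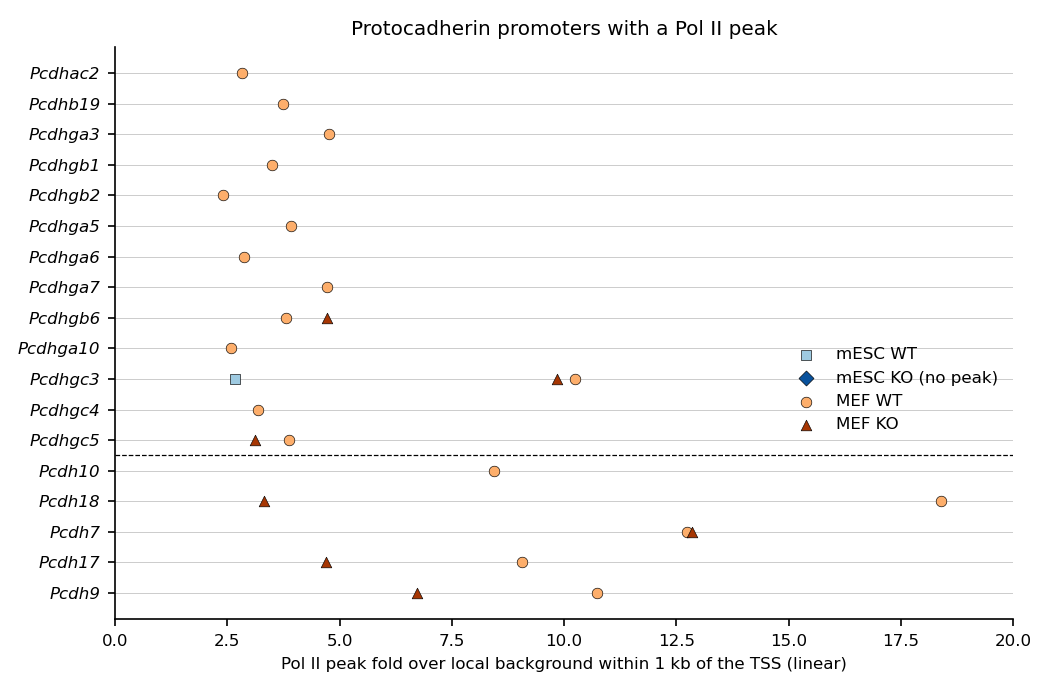
Fold of the highest Pol II peak within 1000 bp of the TSS for the 18 protocadherin genes with a peak in any of the 4 lists, 1 library each; the dashed line separates clustered (above) from non-clustered genes, and a missing symbol means no peak. Only Pcdhgc3 reached a fold of 10 among clustered genes, while Pcdh18 fell from 18.4 in WT to 3.31 in KO MEFs and Pcdh7 stayed near 12.8.

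The alpha cluster (mm10, chromosome 18, 36930184 to 37187661, plus strand) was almost free of both marks. Its genes encode the alpha isoforms, of which Pcdhac1 and Pcdhac2 are the C-type ones at the downstream end. Pol II had 0 peaks in the 257 kb of the cluster in both mESC lists and in KO MEFs, and 2 peaks in WT MEFs. The first lay 322 bp inside Pcdhac2, with a fold of 2.83. The second, with a fold of 5.30, lay in the region of the shared exons, and its summit was 119 bp from the start of the noncoding gene Gm10544. Over the shared exons themselves, 2864 bp counted once, there was no Pol II and no H2Bub1 in any list.

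H2Bub1 was called in the alpha cluster in KO mESCs only, as 1 peak of 0.662 kb and fold 2.26 inside the first exon of Pcdhac2, of which it covered 21.9%. Because the 14 gene bodies overlap at their downstream ends, that peak gives all 14 genes a call. It accounts for 14 of the 16 protocadherin genes with H2Bub1 in KO mESCs and not in WT mESCs, against 9.53% of all genes. Its -log10 q was 1.15, close to the lowest value in the list, 1.01.

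The beta cluster (chromosome 18, 37264938 to 37524479, plus strand) holds 22 genes of mostly a single exon. In mESCs it had no peak of either mark in WT or KO. In WT MEFs it had 1 Pol II peak, 224 bp inside Pcdhb19, with a fold of 3.74, and no H2Bub1. In KO MEFs it had no Pol II peak but 5 H2Bub1 peaks, 1 each over Pcdhb16, Pcdhb17, Pcdhb18, Pcdhb19 and Pcdhb21.

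Those peaks had folds from 2.20 to 2.77 and covered 30.7% of Pcdhb16, 43.5% of Pcdhb17, 35.8% of Pcdhb18, 31.1% of Pcdhb19 and 9.35% of Pcdhb21. They were weak calls, and only the one over Pcdhb17 had a -log10 q of at least 3. All of these genes stand at the downstream end of the cluster, the side that faces the gamma cluster. They were the only protocadherin genes with H2Bub1 in KO MEFs and not in WT MEFs, 5 of 67 against 22.9% of all genes. Pcdhb19, the gene with the Pol II peak in WT, had a weak H2Bub1 call and no Pol II call in KO.

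The gamma cluster (chromosome 18, 37661793 to 37841873, plus strand) was the only cluster with peaks of both marks in every group of cells. Its 21 genes belong to the A, B and C types, and the C-type genes Pcdhgc3, Pcdhgc4 and Pcdhgc5 lie last before the shared exons. The polymorphic pseudogene Pcdhgb8 lies among them and is not counted. The share of the 180 kb of gene body inside H2Bub1 peaks was 13.6% in WT against 19.99% in KO mESCs. In MEFs it was 7.27% in WT against 65.5% in KO. It was higher in KO than in WT in both cell types, and the KO MEF value stood far above the other 3 lists. Most of these peaks were weak. Of them 2 of 20 and 4 of 16 in WT and KO mESCs, and 0 of 10 and 2 of 22 in WT and KO MEFs, had a -log10 q of at least 3, and those alone covered 1.85%, 14.5%, 0% and 24.97%.

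Set beside all genes, the bases of all gene bodies inside H2Bub1 peaks made up 6.73% and 13.6% in WT and KO mESCs and 4.80% and 21.4% in WT and KO MEFs. The covered length reached 118 kb in KO against 13.1 kb in WT MEFs. The length-weighted mean fold of the gamma peaks was 2.85 in KO and 2.93 in WT MEFs, but upstream of Pcdhgc3 it was 2.45 in KO and 3.05 in WT, and from Pcdhgc3 onwards 3.84 in KO and 2.76 in WT. The single widest KO peak had a fold of 3.86.

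**Figure D2:**
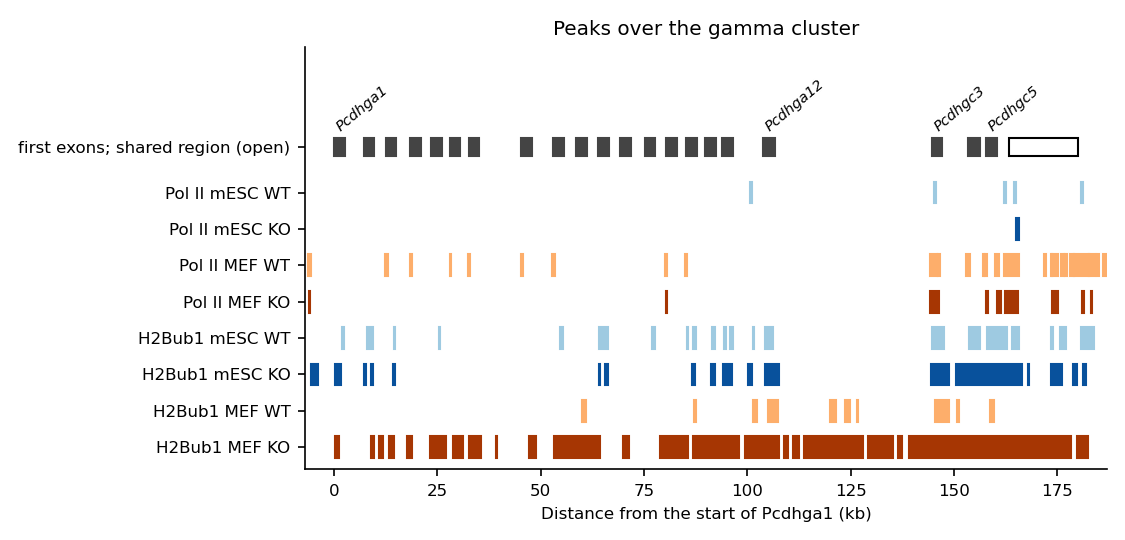
Pol II and H2Bub1 peaks over the gamma cluster in the 8 lists, drawn to scale against the distance from the start of Pcdhga1 in kb; filled boxes are first exons and the open box is the region of the shared exons, and peaks shorter than 0.25 kb are drawn at that width. H2Bub1 of KO MEFs fills most of the cluster and includes a single peak of 39.1 kb from upstream of Pcdhgc3 into the shared region, while Pol II of WT MEFs stands in separate peaks at first exons and in a dense stretch at the downstream end.

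Within the gamma cluster the placement of H2Bub1, with the weak peaks included, differed among the lists. First exons make up 30.6% of the cluster. They held 73.5% of the covered bases in WT and 49.8% in KO mESCs, and for MEFs 45.1% in WT and 31.6% in KO. The cover of WT mESCs was thus concentrated on first exons, while that of KO MEFs was spread over exons and the DNA between them in proportion to their length. Upstream of the shared exons, first exon bases were covered 11.7 times as often as the other bases in WT mESCs and 1.12 times as often in KO MEFs.

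Cover was also measured over each first exon. Each gamma first exon after that of Pcdhga1 lies inside the bodies of the genes upstream of it, so its cover cannot be assigned to its own gene alone. In WT mESCs 14 of 21 gamma first exons had some H2Bub1, against 35.5% of the first exons of all genes, with a median cover of 19.6%. In KO mESCs 11 did, against 51.2%, with a median of 18.3%, and 8 exons were covered further in KO, 6 less far and 7 equally. In WT MEFs 5 did, against 11.7%, namely those of Pcdhgb4, Pcdhga10, Pcdhga12, Pcdhgc3 and Pcdhgc5. In KO MEFs 20 of 21 did, against 47.8%, with a median of 89.1%, and the exception was Pcdhga9. All 20 were covered further in KO than in WT MEFs, against 44.0% of all first exons, and 10 of them over their whole length. Most of this rests on weak peaks. With peaks of -log10 q of at least 3 alone, 3 first exons kept H2Bub1 in KO MEFs (Pcdhgc3, Pcdhgc4 and Pcdhgc5) and 0 in WT MEFs, 4 kept it in KO mESCs (the same 3 and Pcdhga12) and 2 in WT mESCs (Pcdhga1 and Pcdhgc3).

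The first exons of the C-type genes, at the downstream end, were the most fully covered in mESCs. The first exon of Pcdhgc3 was covered to 98.1% and 100% in WT and KO mESCs, and to 73.1% and 100% in WT and KO MEFs. That of Pcdhgc4 was covered to 85.6% and 100% in mESCs, and to 0% and 100% in MEFs. That of Pcdhgc5 was covered to 93.2% and 100% in mESCs, and to 37.3% and 100% in MEFs. Each C-type exon was therefore covered further in KO than in WT in both cell types. Further upstream the order varied among the lists. Pcdhga12 had 65.3%, 83.7%, 59.2% and 100% in WT mESCs, KO mESCs, WT MEFs and KO MEFs, and Pcdhga11 had 44.6%, 78.4%, 0% and 100%. In WT mESCs Pcdhga8 had 80.3% and Pcdhga2 61.0%, and in WT MEFs Pcdhgb4 had 38.6%.

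**Figure D3:**
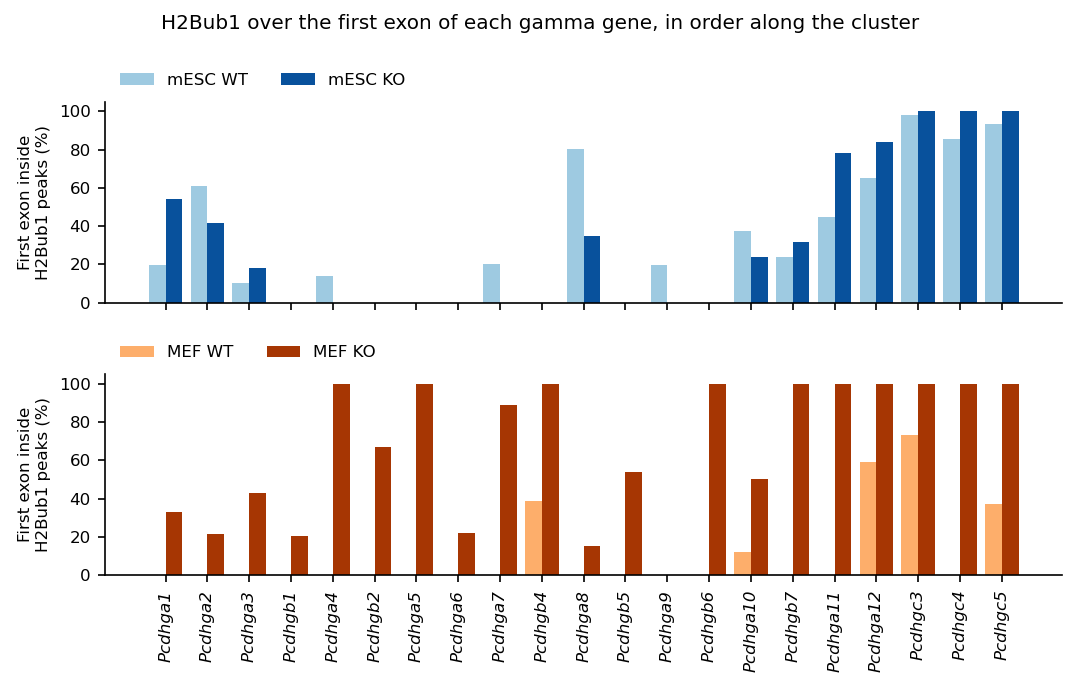
Percent of the first exon of each gamma gene inside H2Bub1 peaks, in order along the cluster, with mESCs above and MEFs below, 1 library per bar. In KO MEFs 20 of the 21 exons have some cover, whereas in mESCs the genes from Pcdhga10 to Pcdhgc5 hold most of it in both genotypes.

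The 35.5 kb from the start of Pcdhgc3 to the end of the cluster were 38.5% and 67.8% covered in WT and KO mESCs, and 14.8% and 95.8% in WT and KO MEFs. The 145 kb upstream of Pcdhgc3 were 7.48% and 8.24% covered in mESCs and 5.43% and 58.1% in MEFs. In mESCs the higher cover of KO thus lay almost entirely from Pcdhgc3 onwards, while in MEFs it lay on both sides. The shared exons, 2119 bp counted once, were 0% covered in both WT lists, 50.1% in KO mESCs and 29.9% in KO MEFs.

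All 21 gamma genes had H2Bub1 in their bodies in every list, since the bodies overlap. With them, 22 of 67 protocadherin genes had H2Bub1 in WT mESCs, against 55.7% of all genes, 37 in KO mESCs against 62.1%, 23 in WT MEFs against 31.7% and 28 in KO MEFs against 54.3%. Counts by gene body say little in a cluster with overlapping bodies, and the covered shares above count each base once.

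**Figure D4:**
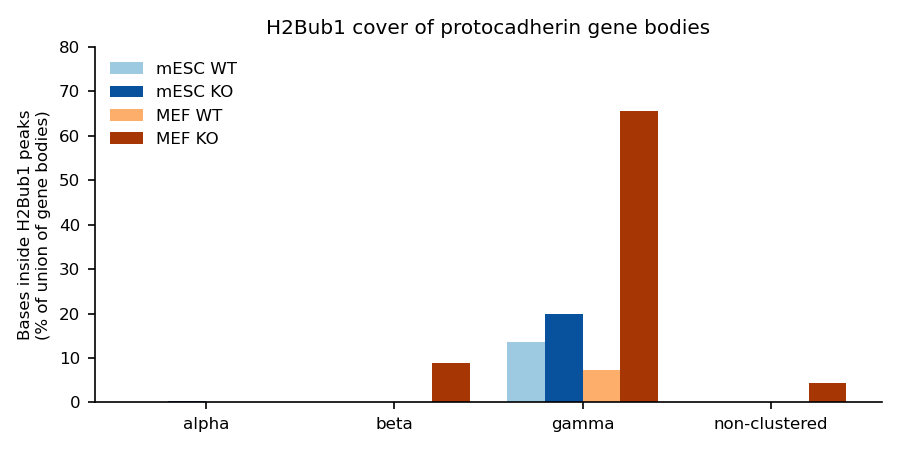
Percent of bases of the union of gene bodies inside H2Bub1 peaks for the 3 clusters and the 10 non-clustered genes, 1 library per bar. The gamma cluster is covered in all 4 lists and most in KO MEFs (65.5%), the beta cluster in KO MEFs only (8.77%), and the alpha cluster reaches 0.257% in KO mESCs.

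Pol II in the gamma cluster was measured both at the promoters and along the bodies. In WT MEFs 11 of 21 promoters held a peak, with folds of 4.78 at Pcdhga3, 3.50 at Pcdhgb1, 2.41 at Pcdhgb2, 3.93 at Pcdhga5, 2.87 at Pcdhga6, 4.72 at Pcdhga7, 3.81 at Pcdhgb6, 2.59 at Pcdhga10, 10.2 at Pcdhgc3, 3.18 at Pcdhgc4 and 3.87 at Pcdhgc5. Their summits lay between 27 bp upstream and 262 bp downstream of the TSS. Pcdhgc3 stood above the others, which had folds under 5.

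In KO MEFs 3 promoters of the gamma cluster held a peak, Pcdhgc3 with a fold of 9.85, Pcdhgb6 with 4.72 and Pcdhgc5 with 3.13. The log2 ratio of KO to WT fold was -0.06 at Pcdhgc3, 0.31 at Pcdhgb6 and -0.31 at Pcdhgc5, while the median over the 10576 genes with a peak in both MEF lists was -0.22. The middle 50% of those genes ran from -0.57 to 0.11, so Pcdhgc3 and Pcdhgc5 lay within that range and Pcdhgb6 above it. The nearest KO peak to the lost promoters was between 4.37 and 38.4 kb away. The antisense gene BC037039 overlaps the start of Pcdhgc3 and begins 1558 bp inside it, and Pol II of the 2 genes cannot be told apart in these data.

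Over the whole gamma bodies, Pol II of mESCs had 4 summits in WT and 1 in KO, and Pol II of MEFs had 21 in WT and 7 in KO. The stretch from Pcdhgc3 to the end held 13 of the 21 in WT MEFs and 6 of the 7 in KO MEFs. In WT MEFs 89.5% of the shared exon bases lay in a Pol II peak, and in KO MEFs 2.78% did. Of the WT share, 47.9 percentage points came from 1 peak with a fold of 5.03 that ran 2.611 kb past the end of the cluster into Diaph1. Over the whole 16.853 kb from the first to the last shared exon, introns included, Pol II covered 44.8% in WT and 19.5% in KO MEFs. H2Bub1 of MEFs covered 0% of the shared exon bases in WT and 29.9% in KO, and 0% and 91.2% of the whole stretch. In mESCs H2Bub1 covered 20.5% of the stretch in WT and 43.2% in KO, while Pol II covered 3.52% and 3.22%.

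In WT mESCs the strongest gamma peak, with a fold of 4.003, lay 781 bp inside the pseudogene Pcdhgb8, and the peak in the Pcdhgc3 promoter window, with a fold of 2.66, had its summit 864 bp downstream of the TSS. In KO mESCs the only one, with a fold of 4.14, lay in the shared region. Diaph1, a formin gene on the opposite strand whose end meets the downstream end of the cluster, held promoter peaks in all 4 lists. Its end lies 1.728 kb past the last gamma exon, and signal there may belong to either side.

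Each Pol II and H2Bub1 call in the clusters rests on 50-base reads that must be placed among similar exons. Of the 50-base windows in first exons, 13.6% in the alpha cluster, 4.23% in the beta cluster and 3.86% in the gamma cluster occurred more than once within the 3 clusters. How reads with several matches were treated is not given in the sources used here. Another 3 gene records annotated as protein-coding (Gm42416, Gm37013 and Gm37388) run from the alpha into the gamma cluster and were not counted, since their names do not begin with Pcdh.

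The non-clustered protocadherins held no Pol II in mESCs, where 0 of 10 promoters had a peak in either genotype. In MEFs 5 of them did, those of Pcdh7, Pcdh9, Pcdh10, Pcdh17 and Pcdh18, which encode delta-type protocadherins with long cytoplasmic tails. The promoters of Pcdh8, Pcdh15 and Pcdh20 had no peak in any list. To show how these promoters differ in sequence, the 250 bases upstream of the RefSeq start are printed 5′ to 3′ on the strand of the gene for 3 that were weaker or lost in KO MEFs, for Pcdh7, which was not, and for Pcdh20, which had no peak. Capitals mark CG dinucleotides, the sites of DNA methylation. The windows are from RefSeq, build GRCm38.p6: chr3:45378148-45378397 for Pcdh10, chr3:49757317-49757566 for Pcdh18, chr14:84443313-84443562 for Pcdh17, chr5:57717831-57718080 for Pcdh7 and chr14:88471397-88471646 for Pcdh20.
Pcdh10: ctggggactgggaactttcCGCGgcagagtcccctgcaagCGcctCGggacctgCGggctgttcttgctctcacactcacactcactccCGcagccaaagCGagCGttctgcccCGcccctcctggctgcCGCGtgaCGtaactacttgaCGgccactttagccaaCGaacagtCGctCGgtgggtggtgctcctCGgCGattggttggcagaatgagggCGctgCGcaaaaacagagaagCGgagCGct
Pcdh18: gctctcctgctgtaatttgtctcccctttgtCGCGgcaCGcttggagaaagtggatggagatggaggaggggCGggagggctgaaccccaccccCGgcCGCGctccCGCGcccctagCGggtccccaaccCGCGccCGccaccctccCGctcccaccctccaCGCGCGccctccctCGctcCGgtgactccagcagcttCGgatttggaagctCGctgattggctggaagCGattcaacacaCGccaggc
Pcdh17: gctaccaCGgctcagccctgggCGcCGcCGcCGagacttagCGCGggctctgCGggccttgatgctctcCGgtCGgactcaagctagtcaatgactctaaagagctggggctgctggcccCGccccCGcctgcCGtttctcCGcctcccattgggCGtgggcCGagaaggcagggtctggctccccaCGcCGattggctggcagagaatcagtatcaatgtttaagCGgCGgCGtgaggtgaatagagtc
Pcdh7: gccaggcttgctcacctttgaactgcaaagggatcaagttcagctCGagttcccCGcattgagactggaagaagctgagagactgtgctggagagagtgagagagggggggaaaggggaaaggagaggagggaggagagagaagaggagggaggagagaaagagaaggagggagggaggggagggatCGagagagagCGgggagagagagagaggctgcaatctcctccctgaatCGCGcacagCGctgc
Pcdh20: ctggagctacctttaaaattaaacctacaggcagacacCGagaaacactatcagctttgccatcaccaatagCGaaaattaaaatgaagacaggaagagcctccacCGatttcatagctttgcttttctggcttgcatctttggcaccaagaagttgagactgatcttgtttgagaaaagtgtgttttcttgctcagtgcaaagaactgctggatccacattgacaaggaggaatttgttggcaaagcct

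The number of CG sites did not fully separate occupied from unoccupied promoters, since Pcdh7 held fewer than Pcdh8. There were 22 at Pcdh10, 23 at Pcdh18, 21 at Pcdh17, 18 at Pcdh9 and 7 at Pcdh7, against 3 at Pcdh20, 6 at Pcdh15 and 11 at Pcdh8, and the median over the 31396 autosomal promoters of the same table and length was 6. The Pcdh7 window holds long runs of a and g. The letters TATAAA, searched on both strands, were found at Pcdh8 and Pcdh15 and at none of the occupied 5, and 12.4% of all promoters of this length hold them. The RefSeq start matched the GENCODE start at Pcdh8, Pcdh9, Pcdh10, Pcdh17 and Pcdh20, and lay 9 bp away at Pcdh18 and 114 bp away at Pcdh7. Of the 10 non-clustered genes 8 matched the table, among them Pcdh15, whose RefSeq start lies 722525 bp inside the GENCODE record.

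Pcdh18 showed the widest difference between WT and KO among the protocadherin genes with a Pol II peak in both. It lies on the minus strand at chr3:49743296-49757325. Its promoter fold was 18.4 in WT and 3.31 in KO MEFs, a log2 ratio of -2.47. The 5th percentile of the ratio over the 10576 genes was -1.12, so Pcdh18 lay below it. In WT MEFs the promoter peak ran to 3.67 kb downstream of the TSS, and further peaks stood in the body (3.89 and 3.17) and around the end of the gene (4.72 and 6.69). In KO MEFs the promoter peak was the only one and ended 0.42 kb downstream.

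H2Bub1 covered 15.6% of Pcdh18 in WT and 5.65% in KO MEFs. The peak of WT ran from 0.85 to 3.03 kb downstream of the TSS, and that of KO from 0.24 to 1.03 kb. Both were weak calls, with folds of 2.72 in WT and 2.13 in KO and a -log10 q of 1.21 and 2.02, so neither is kept at a -log10 q of at least 3. In mESCs Pcdh18 had no peak of either mark.

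Pcdh7 (chr5:57717967-58133230, plus strand) behaved differently. Its promoter fold was 12.7 in WT and 12.9 in KO MEFs, a log2 ratio of 0.01. Peaks overlapping its body numbered 7 in WT and 4 in KO. H2Bub1, however, covered 0.655% of its 415 kb in WT, as a single peak of 3.02 kb at the TSS, and 32.1% in KO, as 32 peaks that together covered 133 kb and reached 313 kb downstream. Their folds ran from 2.07 to 4.04, against 2.59 for the WT peak. Most of the KO peaks were weak calls with a -log10 q under 3. The farthest KO peak with a -log10 q of at least 3 ended 165 kb downstream. The WT peak had a -log10 q of 1.34. The noncoding gene 4932441J04Rik on the opposite strand overlaps the first 2234 bp of Pcdh7 and runs on past its TSS. The Pol II summit lay at -596 bp from the TSS in WT and at -519 bp in KO. Both summits are upstream of the TSS and inside that noncoding gene, so Pol II of the pair cannot be told apart.

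**Figure D5:**
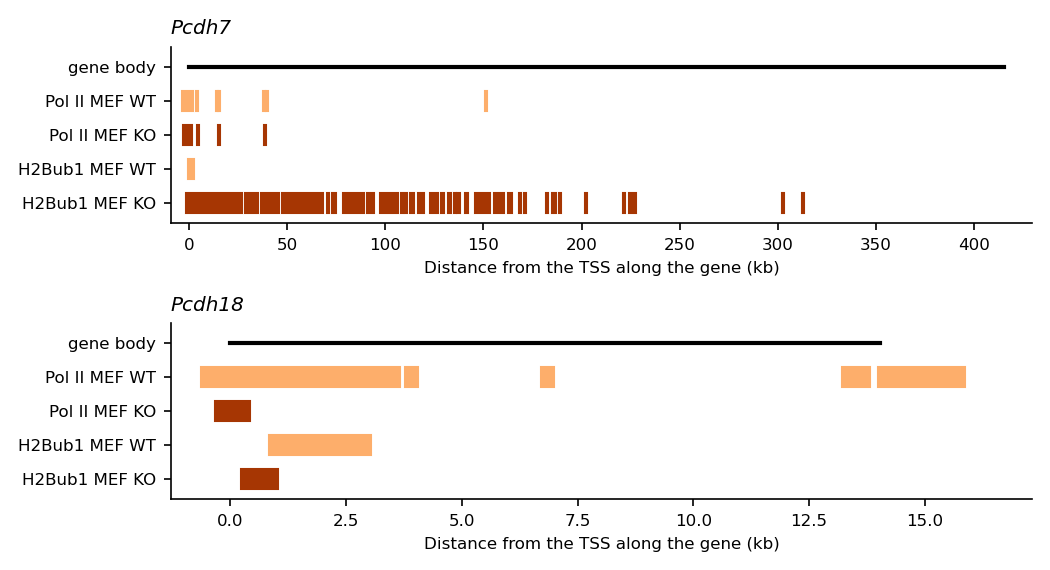
Pol II and H2Bub1 peaks of MEFs at Pcdh7 (above) and Pcdh18 (below), to scale against the distance from the TSS along the gene in kb, 1 library per row; very short peaks are widened to be visible. At Pcdh7 the KO library has H2Bub1 to 313 kb where the WT library has 1 peak of 3.02 kb, and at Pcdh18 the KO library lacks the Pol II peaks downstream of the promoter. No H2Bub1 peak of Pcdh7 beyond 165 kb, and not the WT peak, has a -log10 q of at least 3.

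The other occupied promoters were weaker in KO MEFs than in WT MEFs. Pcdh17 had folds of 9.07 and 4.70 in WT and KO, a log2 ratio of -0.95, and Pcdh9 had 10.7 and 6.74, a log2 ratio of -0.67. Both ratios lay below the middle 50% of all genes and above the 5th percentile. Pcdh10 had a fold of 8.43 in WT and no peak in KO, where the nearest one was 819 kb away. The start of the noncoding gene 2610316D01Rik lies 138 bp from that of Pcdh10 on the opposite strand, and Pol II of that pair cannot be told apart.

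None of Pcdh9, Pcdh10 and Pcdh17 had H2Bub1 in its body in any list, with or without Atxn7l3. In WT MEFs, 2 of the 5 non-clustered genes whose promoter held Pol II had H2Bub1, against 53.4% of all genes so occupied. Of the 4 in KO MEFs, 2 did, against 93.3% of all genes. Those were Pcdh7 and Pcdh18 both times. Pcdh9 and Pcdh17 thus kept their Pol II calls in KO MEFs without a H2Bub1 call.

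These differences between the MEF libraries moved together with others. As given above, the fibroblast markers also had a lower summed fold in KO MEFs, among them Col1a2 with 43.3 in WT and 19.4 in KO and Prrx1 with 18.5 and 5.84. Among neural markers, Tubb3, Elavl4 and Map2 had promoter peaks in WT MEFs, with folds of 10.6, 3.02 and 4.70, and of these Tubb3 had one in KO MEFs, with a fold of 3.24. Elavl3, Neurod1, Neurog2, Stmn2 and Pax6 had none in either. Of the 6 endothelial markers, 2 had one in WT (Kdr and Erg, summed fold 11.4) and 1 in KO MEFs (Pecam1, 4.31), and Cdh5, Tek and Tie1 had none. Of the 3 autosomal neural crest and glia markers 0 had one in MEFs. The part of cell composition in the protocadherin values was not tested, and fewer cells with a peak cannot be told apart from a weaker peak in each cell.

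The remaining non-clustered genes had isolated peaks. Pcdh8, which acts in the movement of mesoderm cells, had H2Bub1 over 28.7% of its 4.54 kb in WT mESCs (fold 2.57) and 0% in KO mESCs. It was the only protocadherin gene with H2Bub1 in WT and not in KO mESCs, 1 of 67 against 3.13% of all genes. Pcdh1 had 8.96% in KO mESCs and Pcdh12, known from endothelium and placenta, 2.00%, and both were at 0% in WT mESCs. These H2Bub1 calls were weak. Their -log10 q was 1.21 at Pcdh8, 2.08 and 1.18 at Pcdh1 and 1.45 at Pcdh12. None is kept at a -log10 q of at least 3. Pcdh15, a part of the tip links of sensory hair cells, had 1 Pol II peak in KO MEFs with a fold of 3.74, 879 kb inside its 1550 kb body. Pcdh20 had no peak of either mark in any list.

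At Pcdh1 (minus strand, 38185914 to 38212053) the promoter had no Pol II peak in any list. A peak with a fold of 15.1 in WT and 11.8 in KO MEFs covered the far end of the gene instead, with summits 636 and 556 bp past it. The nearest start of a gene outside the family was that of the noncoding gene 2010320O07Rik, 24.5 kb from the WT summit. The mESC lists held no peak there, and none of the H2Bub1 lists of MEFs had a peak in Pcdh1.

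Genes known to shape the clusters were taken as a list of 16 (CTCF, cohesin and its loaders, DNA methyltransferases and silencing factors). Of these, 9 and 10 had a Pol II promoter peak in WT and KO mESCs, and 13 in each MEF list. Of all genes, as given above, 35.3% and 32.1% held one in the mESC lists and 55.3% and 52.3% in the MEF lists. Trim28, Dnmt1 and Stag1 had none at the start of the gene record in any list, but all 3 held one at another annotated transcript start in all 4 lists. With any annotated start the counts were 13 and 14 in WT and KO mESCs and 16 in each MEF list, for which no share of all genes was computed. In mESCs Setdb1 had no peak at any start, and Wiz had one in WT at another start. Dnmt3b, a DNA methyltransferase that acts on cluster promoters, had folds of 7.57 and 4.70 in WT and KO MEFs, 3.62 in KO mESCs and no peak in WT mESCs. Among mESCs, Nipbl, the cohesin loader, had no peak in WT and one of fold 3.35 in KO, while Dnmt3a had one of fold 3.07 in WT and, in KO, one only at another annotated start.

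H2Bub1 covered 15 of these 16 genes further in KO than in WT in each cell type, and the exception both times was Mau2, the partner of Nipbl. Among all genes with H2Bub1 in at least 1 of the 2 lists of a cell type, 83.1% were covered further in KO in mESCs and 98.7% in MEFs. The median covered share of the list was 15.5% and 33.8% in WT and KO mESCs and 19.1% and 38.7% in WT and KO MEFs. Over all genes that hold H2Bub1 in the list concerned, the medians were 15.4% and 31.7% for WT and KO mESCs, then 14.7% and 51.1% for the MEF pair. Over all genes, with or without H2Bub1, they were 1.31% and 6.66% for mESCs and 0% and 6.37% for MEFs. The medians of the 16 genes also include any without H2Bub1.

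Proteins linked to the cytoplasmic tails of protocadherins, not all by direct binding, were taken as a list of 14. Among them are the WAVE complex, the kinases FAK and Pyk2, and Axin1. Of the 14 genes, 9 and 8 had a Pol II promoter peak in WT and KO mESCs, and 10 and 11 in WT and KO MEFs. The shares of all genes, as above, were 35.3%, 32.1%, 55.3% and 52.3%. Ret, Ctnnb1 and Cyfip2 had none at the start of the gene record in any list. Ctnnb1, the gene of beta-catenin, held one at another annotated transcript start in all 4 lists, and H2Bub1 covered 76.2% and 86.6% of it in WT and KO mESCs and 69.6% and 83.0% in the MEF pair. Ptk2b, which encodes Pyk2, had no promoter peak in WT MEFs and one with a fold of 6.85 in KO MEFs, and H2Bub1 covered 0% of it in WT and 70.1% in KO MEFs. In mESCs Wasf2 (3.10) and Brk1 (3.67) had a peak in WT only and Fyn (3.21) in KO only, and all 3 had peaks in both MEF lists.

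In MEFs the Pol II folds of the genes on either side of the gamma cluster went in opposite directions between WT and KO, with 1 library each. Taf7, a gene of the general transcription factor TFIID, lies between the beta and gamma clusters. Its promoter fold was 4.16 in WT mESCs, where KO had no peak, and for MEFs 15.5 in WT against 6.18 in KO. H2Bub1 covered 39.9% and 100% of it in WT and KO mESCs and 38.0% and 99.4% in WT and KO MEFs. Diaph1, at the other end, had promoter folds of 6.44 and 5.32 in WT and KO mESCs, and in MEFs the fold was higher in KO (27.9) than in WT (24.5). H2Bub1 on Diaph1 went from 11.9% to 23.6% of the gene between WT and KO mESCs and from 7.60% to 39.9% between the MEF lists. Atxn7l3 itself, whose promoter lies outside the deleted exons, had promoter folds of 3.61 and 3.71 in WT and KO mESCs and 20.9 and 23.4 in WT and KO MEFs.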

How the data were processed

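The members and gene lists were chosen with earlier results of these data known. The authors aligned 50-base single-end reads to mm10 and called peaks with MACS2, and each library used here has its own peak list. Versions in the submitters' processing notes are Bowtie 1.0.0, MACS2 2.1.1.20160309 and bcl2fastq 2.17.1.14. The control and calling thresholds are not given in the sources used here. Deposited folds are pileup over local background, on a linear scale (a ratio), and the deposited -log10 p and -log10 q are those of the authors' peak caller. The authors normalized H2Bub1 by DESeq2 size factors over intergenic regions and Pol II by mapped reads; how this entered the peak calls is not stated. A fold is relative to the background of its own library and gives no absolute change.

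Positions, made 1-based, were compared with GENCODE M21 (GRCm38) on the 19 autosomes. A gene call needed 1 bp of peak. Body peaks were counted by summit over the union of gene bodies, and bases and shared exons were counted once. The first exon was that of the protein-coding transcript with the most exonic bases. Shares have exact Clopper-Pearson 95% intervals. All non-clustered members are named, and clustered members by Pol II promoter peaks or H2Bub1 on their first exon; beyond 10 of these, names were added after their values were seen. List genes are named where their Pol II call differed between WT and KO or was absent, and others after their values were seen; some marker genes are not reported here. Results were recomputed with peaks of -log10 q 3 or more, with the longer list of each WT and KO pair cut to the length of the shorter, with peaks under 1000 bp apart joined, with promoters spanning 100 bp before to 300 bp after the start or 5000 bp on either side, and, chosen after seeing the data, any annotated transcript start. On simulated peaks placed at 200 of 20807 genes, 100% of promoter calls and covered lengths were recovered. Intervals were computed in scipy 1.17.1 and tables in pandas 2.3.3 under Python 3.11.15, with figures from matplotlib 3.10.9.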

Additional observations from a re-analysis of the deposited data

Results flagged for a closer look

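The first exons of 5 gamma genes were covered less far by H2Bub1 in KO than in WT mESCs and further in KO than in WT MEFs. In percentage points, KO minus WT was -19.6 in mESCs and 21.6 in MEFs at Pcdhga2, -13.8 and 100 at Pcdhga4, -20.3 and 89.1 at Pcdhga7, -45.5 and 15.3 at Pcdhga8, and -13.7 and 38.3 at Pcdhga10. The difference between the cell types was not tested, since each group is 1 library. Of the first exons of all 20722 genes with one, 1.71% differed in these 2 directions. All 5 are A-type genes, and the mESC peaks behind these values had folds from 2.27 to 2.92. The calls are weak, and with peaks of -log10 q of at least 3 alone 0 protocadherin genes showed the 2 directions.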

How the results depend on the processing

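Of 80 values recomputed under an alternative, 67 stayed within 1.5 times the main value. That count includes values that were 0 under both settings, and values of the shorter list of each pair, which equal numbers of peaks leave uncut. Joining peaks changed none of its 8 values. The count is therefore no measure of stability. With a -log10 q of at least 3, the H2Bub1 share of clustered gene bodies came to 0.630% in WT mESCs (main value 4.62%), 0% in WT MEFs (2.47%) and 8.87% in KO MEFs (23.8%). That of non-clustered gene bodies came to 0% in WT mESCs (0.0425%), KO mESCs (0.0877%) and WT MEFs (0.160%), and to 2.25% in KO MEFs (4.37%). The same limit left 2 of 4 Pol II body peaks and 0 of 1 promoter in the clusters of WT mESCs, where equal numbers of peaks and the narrow promoter also left 0 promoters. The promoter of 5000 bp on either side gave 3 clustered promoters in WT mESCs and 5 in KO MEFs (main value 3). The order of KO above WT in the gamma cluster held under the stricter limit (14.5% against 1.85% in mESCs, 24.97% against 0% in MEFs) and with equal numbers of peaks (19.4% against 13.6%, 60.7% against 7.27%). With equal numbers of peaks, 8 gamma promoters held Pol II in WT MEFs and 3 in KO MEFs. Any annotated transcript start changed no protocadherin count. Read depth, unknown here, limits every comparison of covered length.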
